A study of Mus musculus with 13 samples.

Results

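Molecular chaperones of mouse E14 embryonic stem cells were described at the level of mRNA and of open chromatin. The 10 genes, Hspa8, Hsp90aa1, Hsp90ab1, Hspd1, Hspe1, Hspa5, Hspa9, Hspa1b, Dnaja1 and Hsph1, were chosen by name, and each was found as 1 of the 24470 genes in the deposited count table. E14 is an established embryonic stem cell line of 129/Ola background, grown here with serum and leukemia inhibitory factor and with no other treatment. All libraries thus come from 1 cell line and 1 culture condition, and whether the experiments share 1 genotype was not tested. In the low-input protocol, accessible DNA was cut with the transposase Tn5 in permeabilized cells, and messenger RNA was then captured on oligo-dT beads from the same lysate. Experiment 1 gave libraries from 10000 and 20000 cells and experiment 2, on another day, gave libraries from 5000, 10000 and 20000 cells, each as an ATAC and an mRNA library. Omni-ATAC, an established protocol, was run as a benchmark with 5000, 10000 and 50000 cells, 1 library each. The questions were how far cell number and the day of the experiment moved the chaperone mRNAs, and whether the chaperone promoters were found open in each ATAC list.

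Chaperones bind unfolded or partly folded proteins and release them for folding, for which most of them use ATP. Hsp70 proteins work with J-domain proteins, which bring them clients, and with nucleotide exchange factors, which reset them, whereas Hsp90 proteins act later, on kinases, receptors and other clients that are near their final shape. Heat shock factor 1 raises many of these genes under stress by binding arrays of the sequence GAA in alternating orientation, while several members are also made at a high constitutive level in dividing cells.

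The 5 mRNA libraries held between 13727122 and 20426252 counts, and those of experiment 1 were shallower (13727122 and 14944870) than those of experiment 2 (15506892 to 20426252). Levels are given in CPM, in which a gene's count is scaled to a fixed library total, and are not divided by transcript length, so they are compared between libraries and not between genes. All 10 pluripotency markers had over 3 counts in every library, with summed levels of 3526 to 3681 CPM. Still, 3 of the 10 were called between experiments (Klf4 and Zfp42 higher and Utf1 lower in experiment 2). Zfp42 lies on chromosome 8, where 91.9% of 409 genes averaging 10 CPM or more were higher in experiment 2. Among 12 fibroblast markers, 4 to 9 had over 3 counts in a library, and Col3a1 and Lum were at 0 counts in all 5 libraries. The summed level of these markers was 38.9 and 42.6 CPM in experiment 1 against 13.2 to 18.1 CPM in experiment 2, and the difference came from Thy1, at 29.2 and 33.9 CPM against 6.77 to 9.78 CPM. The other 11 summed to 9.69 and 8.70 CPM in experiment 1 and to 3.46, 11.3 and 7.29 CPM in experiment 2, and overlapped. The summed level of 10 lineage markers was 9.40 and 10.3 CPM in experiment 1 and 13.5 to 18.6 CPM in experiment 2. Without Pax6 (0.146 and 0 CPM against 3.52 to 6.96 CPM) the other 9 overlapped, at 9.25 and 10.3 CPM against 7.99 to 11.6 CPM, and Gata6 was called lower in experiment 2. The part of depth and of these markers in the differences below was not tested.

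Together the 10 chaperones took 1.21% and 1.17% of all counts at 10000 and 20000 cells in experiment 1, and 1.24%, 1.26% and 1.35% at 5000, 10000 and 20000 cells in experiment 2. The share was higher in all 3 libraries of experiment 2, which rested on Hsp90ab1 (0.545% to 0.673% of all counts). The other 9 took 0.667% and 0.628% in experiment 1 and 0.644%, 0.645% and 0.682% in experiment 2, and overlapped. Over the 5 libraries the coefficient of variation of CPM ran from 3.47% for Dnaja1 to 32.3% for Hspa1b. Between experiments, tested over the 4 libraries from 10000 and 20000 cells with edgeR's quasi-likelihood test, 1 of the 10 genes (Hspa8) had an adjusted p under 0.05, and this gene was higher in experiment 2. Over all genes tested, 12.5% were called in that comparison (5.75% higher and 6.76% lower), and 21.8% of genes that averaged 100 CPM or more. The fitted log2 fold changes were positive for 4 members and negative for 6. Their median was -0.06, against 0.00 over all 12523 genes tested, and their median size without sign was 0.21, against 0.32 over all genes tested and 0.18 over genes that averaged 100 CPM or more. In 8 of the 10 genes the CPM of the 2 libraries of experiment 1 did not overlap those of the 3 libraries of experiment 2, 3 being higher and 5 lower in experiment 2. That separation was found in 41.5% of all genes tested and in 51.8% of those that averaged 100 CPM or more. Libraries of an experiment share a day, so p-values measure the spread between these libraries and carry no replication of days. In such bulk libraries fewer cells of a kind and less RNA per cell cannot be told apart.

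**Figure D1:**
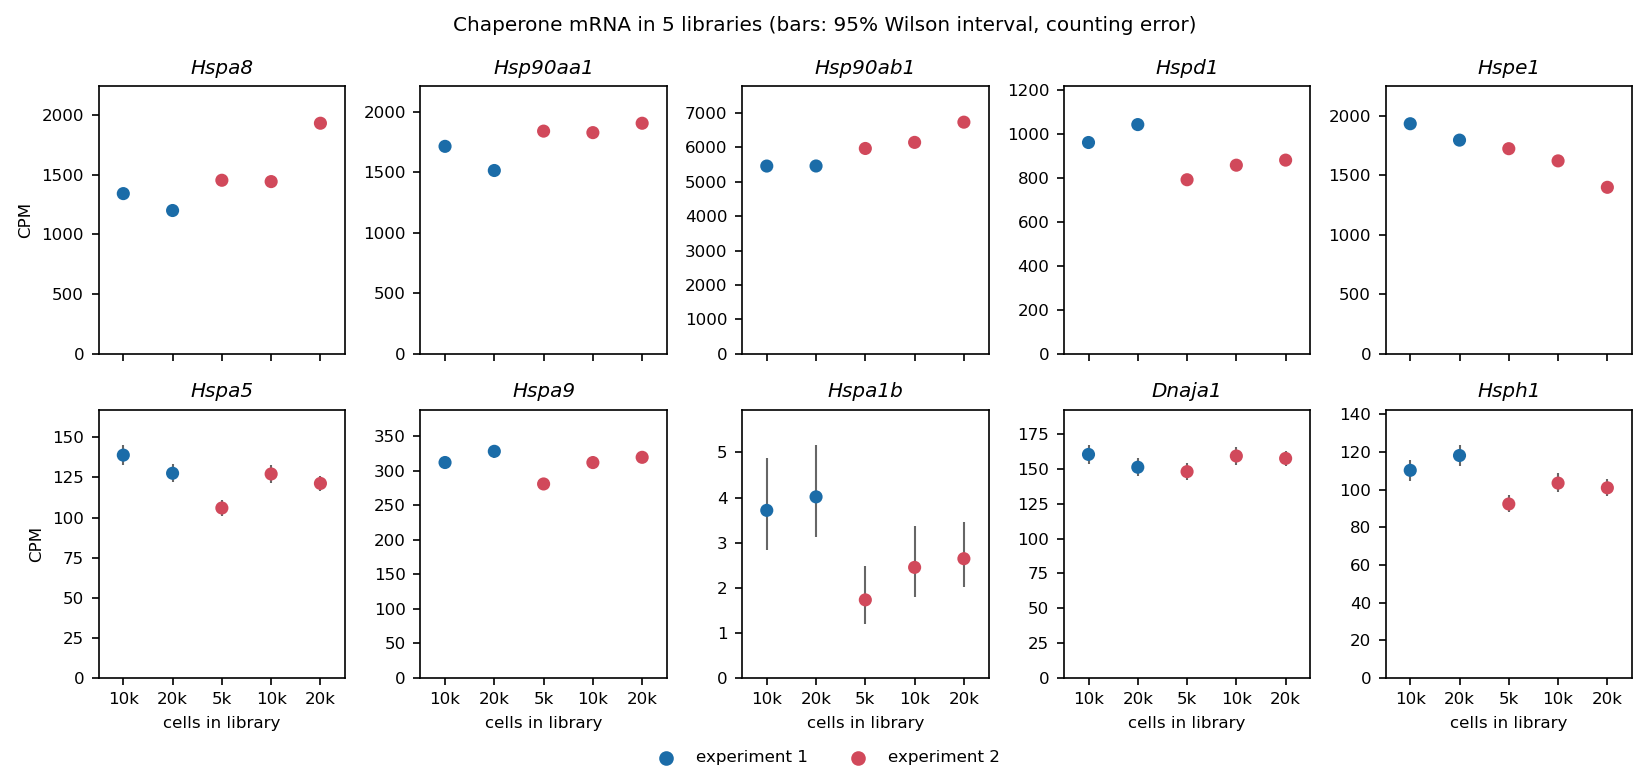
CPM (vertical axes, from 0) of the 10 chaperones in the 5 mRNA libraries (horizontal axes, cell number), with experiment 1 in blue and experiment 2 in red; bars are 95% Wilson intervals for counting error. Hspa8 and both Hsp90 genes lie higher in all 3 libraries of experiment 2, Hspd1 and Hspe1 lie lower, and Hspa1b stays under 5 CPM throughout.

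Promoters were read against 2 kinds of sequence element. A heat shock element was searched as GAANNTTC or TTCNNGAA, each of which matches itself on the other strand. The longer form was GAANNTTC with another GAA after a gap of 2 bases, or its reverse complement TTCNNGAA with another TTC, and each contains both shorter ones. Of 32851 RefSeq promoter windows of 300 bases (GRCm38.p6, 250 bases before to 50 after a start), 15.1% held the shorter element and 0.603% the longer. The endoplasmic reticulum stress element, CCAAT and CCACG with a gap of 9 bases, searched on both strands, was in 0.119% of them. Windows were matched by gene ID for 6 members, and in each of them peaks of at least 2 lists contain an element. Of these windows 5 are printed beside their genes. The Hspd1 window is left out because it overlaps that of Hspe1 and holds the same array. A match of letters describes the sequence and is not a measured binding site. An ATAC peak is an interval that the authors called as open. A peak was assigned to a gene when it came within 1000 bp of the start of transcription (TSS) in the count table. Peaks of 9 bp, the shortest width, made up 24.4% to 59.2% of all peaks of a list and are not particular to these genes.

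Hspa8 encodes Hsc70, the constitutive cytosolic Hsp70. Its level was 1341 and 1199.5 CPM at 10000 and 20000 cells in experiment 1, and 1453, 1441 and 1929 CPM at 5000, 10000 and 20000 cells in experiment 2. The 3 values of experiment 2 lay above both of experiment 1, and the library from 20000 cells, also the deepest, stood apart from the others of its experiment. Over 4 libraries Hspa8 rose from 1270.3 ± 100.02 to 1685 ± 345 CPM (SD, n = 2 each), a log2 fold change of 0.41 ± 0.12 (SE, edgeR adjusted p = 0.0251). The call was lost without the experiment 2 library from 20000 cells (0.20, edgeR adjusted p = 0.316) and without the experiment 1 library from 20000 cells (0.35, adjusted p = 0.136). It was lost as well when the library from 5000 cells was added (0.38, edgeR adjusted p = 0.0515), a fit that called 11.4% of all genes and 0 of the 10 chaperones. All 8 ATAC lists had a peak near its TSS (mm10 chromosome 9, 40801273). In the lists from 10000 cells (experiment 1), 20000 cells (experiment 1) and 10000 cells by Omni-ATAC it was split into a part ending 386 to 415 bp before the TSS and a part ending 106 bp before it. In the experiment 2 list from 10000 cells the second part was 210 bp wide and covered the TSS. The lists from 20000 cells (experiment 2) and 50000 cells showed 1 continuous peak, of 567 and 596 bp, that covered the TSS.

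Hspa1b encodes the stress-inducible cytosolic Hsp70. It had 51 and 60 counts in experiment 1 (3.72 and 4.01 CPM) and 29, 38 and 54 counts in experiment 2 (1.73, 2.45 and 2.64 CPM). The 95% Wilson intervals, which cover counting error only, ran from 2.03 to 3.45 CPM at 20000 cells in experiment 2 and from 3.12 to 5.17 CPM at 20000 cells in experiment 1. The experiments did not overlap, but the log2 fold change of -0.60 ± 0.45 had an edgeR adjusted p of 0.439. Its near-identical neighbour Hspa1a had 37 and 45 counts in experiment 1, and 0, 6 and 11 counts in experiment 2. The floor of 3 counts that was set for a count of 0 is 0.179 CPM in the library from 5000 cells, and the 95% Wilson upper limit is 0.229 CPM. Hspa1a fell by 2.59 on the log2 scale (SE 0.73, edgeR adjusted p = 0.0190), a call that was lost when any 1 of the 4 libraries was left out (-2.84 to -2.38, adjusted p of 0.0649 to 0.135). How reads that match both genes were counted is not given in the sources used here, so both levels, their split and their sum are uncertain and may be too low. Their summed level was 6.41 and 7.03 CPM in experiment 1 and 1.73, 2.84 and 3.18 CPM in experiment 2.

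Hspa1b had a peak near the TSS (chromosome 17, 34959238) in all 8 lists, as did 20.8% of genes averaging 1 to 10 CPM and 14.8% of all genes. A peak covered the TSS itself in 5 lists. A separate peak lay upstream, ending 371 or 434 bp before the TSS, in the low-input lists from 5000 cells, 10000 cells (both experiments) and 20000 cells (experiment 2) and in the Omni-ATAC list from 5000 cells. Its promoter window holds 1 heat shock element, in capitals, from 104 to 97 bases before the TSS.
Hspa1b, chr17:34959189-34959488, minus strand: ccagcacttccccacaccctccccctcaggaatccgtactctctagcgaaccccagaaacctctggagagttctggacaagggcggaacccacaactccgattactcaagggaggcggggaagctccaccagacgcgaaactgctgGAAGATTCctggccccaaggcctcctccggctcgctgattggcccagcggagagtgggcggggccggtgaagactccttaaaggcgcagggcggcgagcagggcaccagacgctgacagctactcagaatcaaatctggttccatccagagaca
The element lay inside a peak in 3 lists, namely low-input from 20000 cells in experiment 2 (258 bp wide) and Omni-ATAC from 10000 cells (231 bp) and 50000 cells (627 bp).

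Dnaja1 encodes a J-domain co-chaperone that delivers clients to Hsc70, and it varied least of the 10. It was at 161 and 151 CPM in experiment 1 and at 148, 159 and 158 CPM in experiment 2, and the experiments overlapped. The log2 fold change was 0.03 ± 0.12 (SE, edgeR adjusted p = 0.935), with a 95% interval from -0.22 to 0.27. Dnaja1 overlaps the antisense gene Gm6297 at its 5′ end, which had at most 19 counts in a library, and RefSeq lists 1 pseudogene named for it. A peak was near its TSS (chromosome 4, 40722468) in 6 lists and in neither list from 5000 cells. Its window, printed because peaks of 4 lists contain its element, holds 1 element in capitals, from 124 to 117 bases before the TSS.
Dnaja1, chr4:40722218-40722517, plus strand: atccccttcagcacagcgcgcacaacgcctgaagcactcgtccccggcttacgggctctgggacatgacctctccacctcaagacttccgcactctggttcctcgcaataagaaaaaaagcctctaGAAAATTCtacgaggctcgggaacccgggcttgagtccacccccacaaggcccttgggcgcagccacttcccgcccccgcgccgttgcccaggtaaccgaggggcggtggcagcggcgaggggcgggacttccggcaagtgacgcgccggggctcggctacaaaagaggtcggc
The element was inside a peak in both lists from 20000 cells and in the Omni-ATAC lists from 10000 and 50000 cells. In the experiment 2 list from 10000 cells the promoter carried only 2 peaks of 9 bp, both after the TSS.

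Hsph1 encodes Hsp110, which acts as a nucleotide exchange factor for Hsp70. It was at 110.3 and 118 CPM in experiment 1 and at 92.4, 104 and 101 CPM in experiment 2. All 3 values of experiment 2 were below those of experiment 1, with a log2 fold change of -0.16 ± 0.13 (edgeR adjusted p = 0.478). Hsph1 was the 1 member whose TSS (chromosome 5, 149636315) was covered by a peak in all 8 lists. The peak ended at 49 or 138 bases after the TSS in each of them, and its widest form was 668 bp, in the Omni-ATAC list from 50000 cells. Its window has an element from 54 to 47 bases before the TSS and a longer one from 15 to 27 bases after it, both in capitals.
Hsph1, chr5:149636266-149636565, minus strand: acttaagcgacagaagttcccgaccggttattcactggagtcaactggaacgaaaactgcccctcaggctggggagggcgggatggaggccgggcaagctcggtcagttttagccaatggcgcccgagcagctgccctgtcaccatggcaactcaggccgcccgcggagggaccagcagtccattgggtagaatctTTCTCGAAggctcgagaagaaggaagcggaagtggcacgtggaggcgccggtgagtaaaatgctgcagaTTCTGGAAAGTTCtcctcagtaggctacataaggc
Both elements were inside a peak in all 8 lists. Of the members with a printed window, Hsph1 was alone in having every heat shock element under a peak in each list.

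Hsp90ab1 encodes the constitutive cytosolic Hsp90 and Hsp90aa1 the more inducible form. Hsp90ab1 was at 5453 and 5455 CPM in experiment 1 and at 5964, 6140.2 and 6727 CPM in experiment 2. Hsp90aa1 was at 1715 and 1516 CPM in experiment 1 and at 1841, 1829 and 1906 CPM in experiment 2. For both genes all 3 libraries of experiment 2 lay above both of experiment 1. The log2 fold changes were 0.24 ± 0.10 for Hsp90ab1 (SE, edgeR adjusted p = 0.109) and 0.21 ± 0.11 for Hsp90aa1 (edgeR adjusted p = 0.213), so neither passed. Without the experiment 2 library from 10000 cells, Hsp90ab1 passed (0.31, edgeR adjusted p = 0.0229). In the other leave-one-out fits it was at 0.18 to 0.26 and did not pass (edgeR adjusted p of 0.202 to 0.375). The ratio of Hsp90ab1 to Hsp90aa1 counts was 3.18 and 3.60 in experiment 1 and 3.24, 3.36 and 3.53 in experiment 2, higher at 20000 than at 10000 cells both times.

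The promoters of the Hsp90 genes differed in the lists. Hsp90ab1 (TSS at chromosome 17, 45573261) had a peak in 8 lists. In experiment 1 it was 9 bp wide in both lists, as were 45% and 40.1% of all peaks there at 10000 and 20000 cells. It covered the TSS at 10000 cells and began 16 bases after it at 20000 cells. In experiment 2 the widest peak was 56 to 72 bp. That peak covered the TSS at 20000 cells and began 16 bases after it at 5000 and 10000 cells. The Omni-ATAC list from 50000 cells had a peak of 272 bp over the TSS. In the Omni-ATAC list from 10000 cells its peak was not at the TSS but from 677 to 539 bp before it. Hsp90aa1 (TSS at chromosome 12, 110696395) had a peak in 3 lists, those from 5000 and 20000 cells of experiment 2 and the Omni-ATAC list from 50000 cells. The first was 9 bp wide and lay after the TSS, the second had peaks of 32 and 49 bp, and the third was 410 bp wide. With peaks of at least 50 bp Hsp90aa1 kept 1 list. Hsp90aa1 was also the 1 member without a region in the deposited unified list within 1000 bp of its TSS.

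Hspd1 and Hspe1 encode Hsp60 and its lid Hsp10, the chaperonin of the mitochondrial matrix, and are transcribed in opposite directions from starts 216 bp apart on chromosome 1 (55087932 and 55088148). Hspd1 was at 959.6 and 1041 CPM in experiment 1 and at 791, 857 and 879.6 CPM in experiment 2. Hspe1 was at 1933 and 1795 CPM in experiment 1 and at 1723, 1621 and 1399 CPM in experiment 2. Both genes were lower in all 3 libraries of experiment 2. The log2 fold changes were -0.20 ± 0.11 for Hspd1 (SE, edgeR adjusted p = 0.239) and -0.30 ± 0.11 for Hspe1 (edgeR adjusted p = 0.0714), and neither passed. Without the experiment 2 library from 10000 cells Hspe1 passed (-0.41, edgeR adjusted p = 0.017). Without the experiment 2 library from 20000 cells Hspe1 was at -0.19 (edgeR adjusted p = 0.314), as it was with all 5 libraries (adjusted p = 0.363). Hspd1 was at -0.13 without the experiment 1 library from 20000 cells (edgeR adjusted p = 0.671). RefSeq lists 5 pseudogenes named for Hspd1 and 7 for Hspe1, and how reads shared with them were counted is not stated, so both levels are uncertain.

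The pair did not keep a fixed ratio. Hspe1 had 2.01 times the counts of Hspd1 at 10000 cells and 1.73 times at 20000 cells in experiment 1. In experiment 2 the ratio was 2.18 at 5000, 1.89 at 10000 and 1.59 at 20000 cells, so it was lower with more cells in both experiments. With all 5 libraries and the experiment as a block, the slope per doubling of cell number was -0.19 ± 0.06 for Hspe1 (SE, edgeR adjusted p = 0.411, unadjusted p = 0.00576) and 0.04 ± 0.06 for Hspd1 (adjusted p = 0.935). Neither slope passed, and the difference between the slopes was not tested.

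The shared promoter is shown from the Hspe1 side, because its capitals mark a dense array in which GAA or TTC occurs 4 times, from 89 to 72 bases before the Hspe1 TSS. It holds 2 overlapping copies of the longer element.
Hspe1, chr1:55087898-55088197, plus strand: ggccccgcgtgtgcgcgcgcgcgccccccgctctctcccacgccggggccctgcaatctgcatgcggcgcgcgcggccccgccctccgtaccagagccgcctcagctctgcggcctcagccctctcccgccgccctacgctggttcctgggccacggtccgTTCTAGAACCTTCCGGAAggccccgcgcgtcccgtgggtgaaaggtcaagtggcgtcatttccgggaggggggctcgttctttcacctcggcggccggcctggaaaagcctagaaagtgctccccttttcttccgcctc
A peak was within 1000 bp of either start in 5 lists, those of the 3 low-input libraries of experiment 2 and of Omni-ATAC from 5000 and 50000 cells. Neither list of experiment 1 had one, nor did the Omni-ATAC list from 10000 cells with its 31207 peaks. In the lists from 5000 cells the peaks near the Hspe1 start were 9 bp wide. The array was inside a peak in 2 lists, low-input from 10000 cells in experiment 2 (359 bp) and Omni-ATAC from 50000 cells (787 bp). In the experiment 2 list from 20000 cells the main peak of 200 bp began 8 bases after the Hspe1 TSS and left the array out. The lists of experiment 1 are shorter at equal cell number (18877 and 27016 peaks against 29870 and 49508), and length of list and day cannot be told apart. The experiment 2 list from 5000 cells, with 18637 peaks, had the 9 bp peak.

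Hspa9 encodes mortalin, the Hsp70 of mitochondria, which helps pull proteins into the matrix. It was at 312 and 328 CPM in experiment 1 and at 281, 312 and 319 CPM in experiment 2, with overlap. The log2 fold change was -0.02 ± 0.11 (SE, edgeR adjusted p = 0.949; 95% interval from -0.25 to 0.22). All 8 lists had a peak within 1000 bp of its TSS. Upstream peaks lay between 551 and 293 bases before the TSS and were up to 259 bp wide, and in 4 lists the widest peak was under 50 bp. RefSeq lists 1 pseudogene named for Hspa9, and its level has the same uncertainty as those of Hspd1 and Hspe1.

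Hspa5 encodes BiP, the Hsp70 of the endoplasmic reticulum and a classical target of the unfolded protein response. It was at 139 and 128 CPM in experiment 1 and at 106, 127 and 121 CPM in experiment 2. The ranges did not overlap, though 128 and 127 CPM nearly met, and the log2 fold change was -0.10 ± 0.12 (SE, edgeR adjusted p = 0.678). A peak was present in 8 lists and covered the TSS (chromosome 2, 34772090) in 6, including all 5 low-input lists, where it was 262 to 379 bp wide. Its window holds no heat shock element of the letters searched. It holds the stress element, in capitals, from 65 to 47 bases before the TSS.
Hspa5, chr2:34771840-34772139, plus strand: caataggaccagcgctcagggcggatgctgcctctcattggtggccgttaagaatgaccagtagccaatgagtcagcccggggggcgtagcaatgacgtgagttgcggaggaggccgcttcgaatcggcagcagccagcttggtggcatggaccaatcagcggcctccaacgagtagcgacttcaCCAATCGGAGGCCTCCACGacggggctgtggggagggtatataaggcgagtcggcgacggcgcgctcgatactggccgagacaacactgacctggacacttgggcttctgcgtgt
The element was inside a peak in 7 lists. The exception was Omni-ATAC from 5000 cells, the shortest list with 9097 peaks, where the peak was 27 bp wide and lay from 250 to 224 bases before the TSS.

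**Figure D2:**
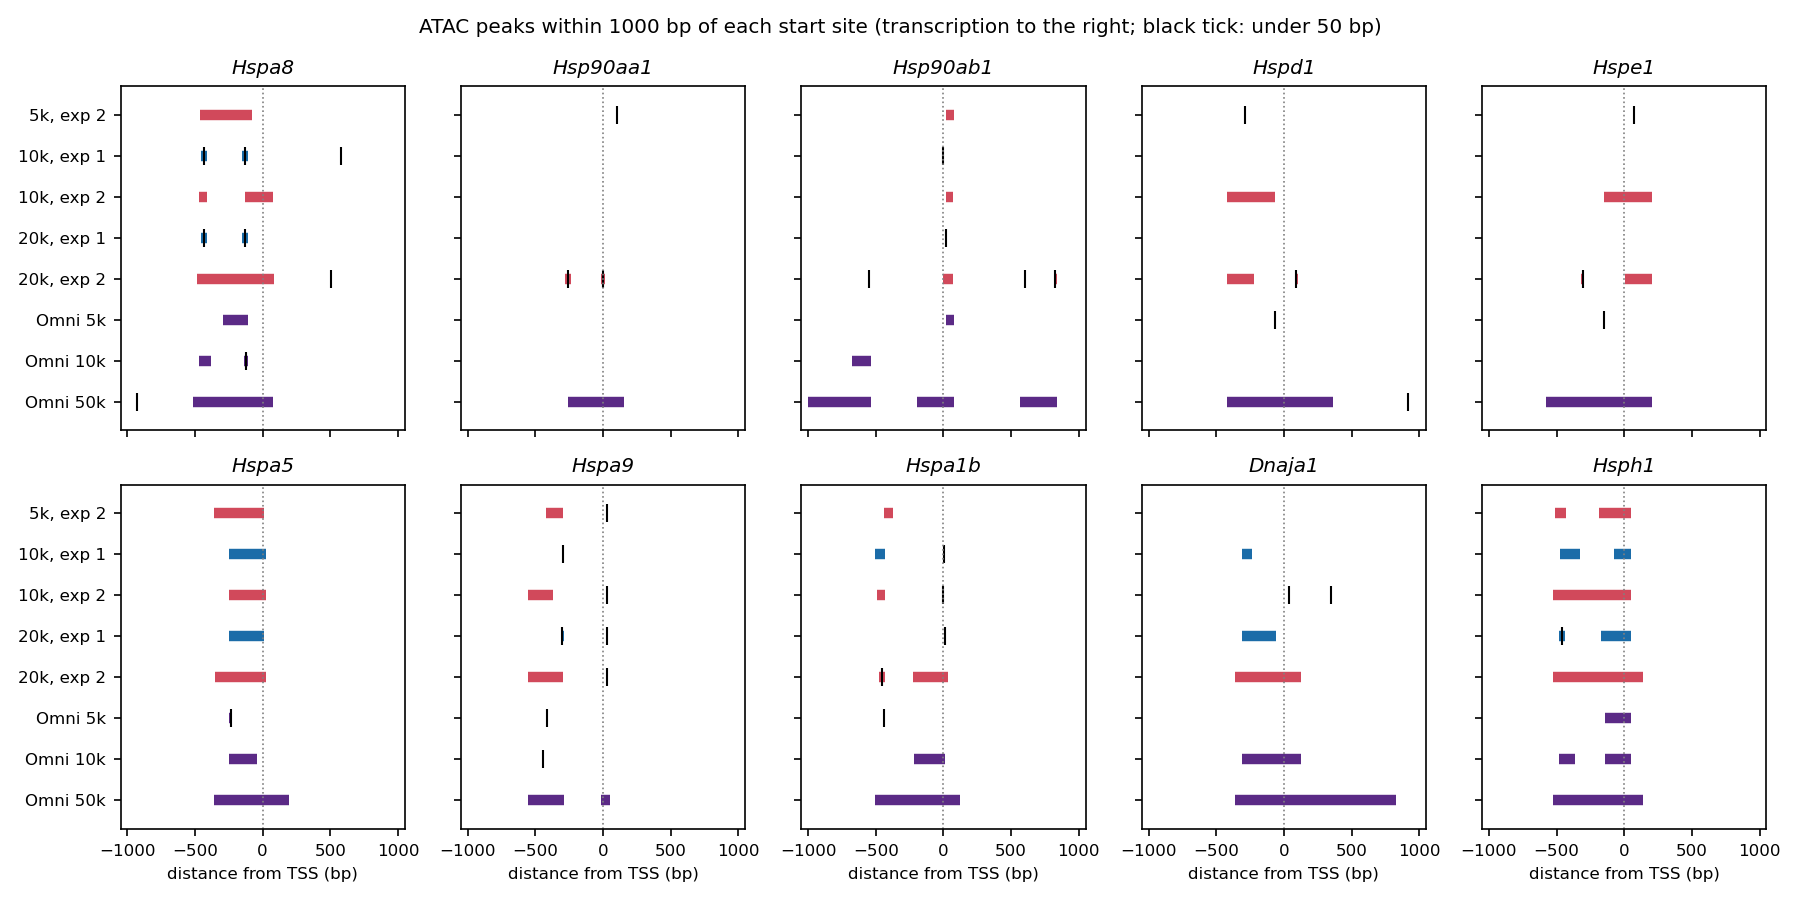
ATAC peaks (bars) within 1000 bp of the TSS of each chaperone in the 8 lists, by distance from the TSS in bp, with low-input experiment 1 in blue, experiment 2 in red and Omni-ATAC in purple; black ticks mark peaks under 50 bp, and bars end at the limits of the axis. Peaks cover the TSS in 8 lists for Hsph1 and in 6 for Hspa5, and Hsp90aa1 has peaks in 3.

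Counted over the 10 genes, 9, 7, 9, 7 and 10 had a promoter peak in the low-input lists from 5000 cells, 10000 cells (experiments 1 and 2) and 20000 cells (experiments 1 and 2), and 8, 7 and 10 in the Omni-ATAC lists from 5000, 10000 and 50000 cells. The same measure over all genes was 31.1%, 31.1%, 40.5%, 37.4% and 50.3% in the low-input lists and 18.6%, 41.5% and 61.1% in the Omni-ATAC lists. Among genes that averaged 100 CPM or more it was 66%, 64.2%, 79.7%, 74.2% and 91.3% in the low-input lists and 40.7%, 77.8% and 96.8% in the Omni-ATAC lists. A peak in all 8 lists was found for 6 members, Hspa8, Hsp90ab1, Hspa5, Hspa9, Hspa1b and Hsph1. This held for 14.8% of all genes and for 34.4% of genes that averaged 100 CPM or more, a group to which all members but Hspa1b belong. The Omni-ATAC list from 50000 cells covered the TSS of all 10 members, and that from 5000 cells covered 1. The share of all genes with a covered TSS was not computed. Counts of covered starts, here and for single members above, are therefore not read as particular to chaperones. Peak lists hold no height, and the depth of the ATAC libraries is unknown, so depth cannot be told apart from cell number.

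Cell number was then compared over the same 4 libraries. At 20000 against 10000 cells none of the 10 chaperones was called by edgeR's quasi-likelihood test, and 0 had an unadjusted p under 0.05. Of all 12523 genes, 0% were called, with 101 (0.807%) at an unadjusted p under 0.05, and DESeq2 called 0 genes with 60 at an unadjusted p under 0.05. The log2 fold changes ran from -0.17 ± 0.18 for Hspe1 to 0.15 ± 0.23 for Hspa8 (SE, edgeR adjusted p = 0.999 for each). With the experiment as a block the errors were smaller and 0 members were called, against 0.0319% of all genes. In that fit the 95% interval ran from -0.43 to 0.07 for Hspe1, and from -0.14 to 0.37 for Hspa8, and for Hsp90ab1 from -0.21 to 0.30. For Hspa1b it was wider, from -0.87 to 1.06.

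**Figure D3:**
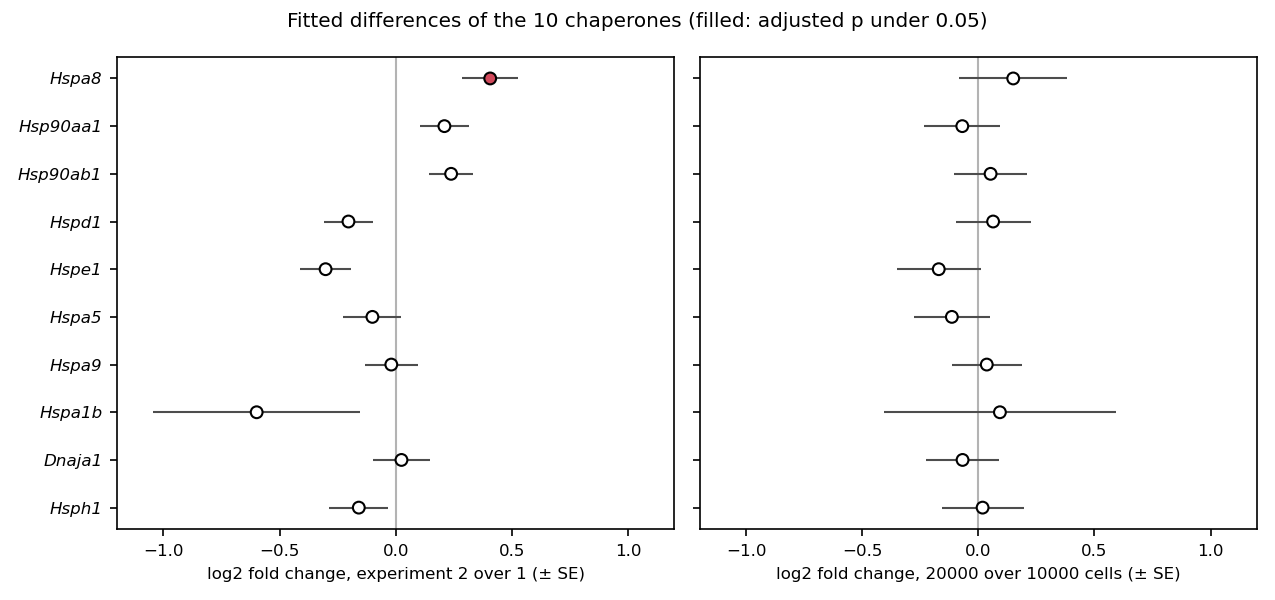
Fitted log2 fold changes (points) with their SE (bars) for the 10 chaperones between experiments (left) and between cell numbers (right), each from 4 libraries; a filled point has an adjusted p under 0.05. Hspa8 at 0.41 in the left panel is filled, and Hspa1b has the longest bars in both panels.

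With 1 library from 5000 cells there is no test, and its values were set beside those of the others in experiment 2, as log2(CPM + 1) minus their mean. A gap of 2-fold or more was seen in 0 of the 10 chaperones and in 2.88% of the 11512 genes averaging 1 CPM or more. It was lower for 9 members, as for 63.3% of those genes and 57% of genes that averaged 100 CPM or more, with the lowest difference for Hspa1b (-0.38), then Hspa5 (-0.23) and Hspa8 (-0.20), and higher for Hspe1 (0.19). For 6 members, Hspd1, Hspa5, Hspa9, Hspa1b, Dnaja1 and Hsph1, this library was the lowest of all 5, as it was for 32.7% of genes averaging 1 CPM or more and 28.1% of those at 100 CPM or more. Hspa8 was not among them. Set against the others of experiment 2 in the same way, its library from 10000 cells was as low (-0.22) and that from 20000 cells was higher (0.41).

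Which genes had a profile most like a chaperone's was described by the root mean square distance of centred log2(CPM + 1) over the 5 libraries, among 6484 genes averaging 10 CPM or more. For Hspa8 the nearest were Rtn3 (0.0441), Rnf166 (0.0444), Phgdh (0.0450), Nek2 (0.0477) and Tgs1 (0.0514), with a median gene at 0.276. The nearest member to Hspa8 was Hsp90ab1, in place 222 at 0.126. For Hspd1 the nearest were Hint2 (0.0126), Ciao1 (0.0164), Eif2b1 (0.0201), Hat1 (0.0203) and Utp14a (0.0250), with a median gene at 0.210. Hsph1 was in place 10 at 0.0318, whereas Hspe1, which shares the Hspd1 promoter, was in place 1976 at 0.160.

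The wider chaperone network was taken from 9 lists with 103 genes, of which 99 were tested between experiments. By edgeR's quasi-likelihood test 5 were higher and 10 lower in experiment 2, or 15.2%, against 12.5% of all genes tested, and the median log2 fold change was -0.04. All 8 subunits of the TRiC chaperonin, which folds actin and tubulin in the cytosol, stayed between -0.18 and 0.11 on the log2 scale, and 0 passed. Of 12 Hsp90 co-chaperones 1 passed, Cdc37, which brings kinases to Hsp90 and was lower (-0.40 ± 0.12, edgeR adjusted p = 0.0269). Of 10 mitochondrial chaperones and proteases 1 passed, the protease subunit Clpp (-0.47 ± 0.11, adjusted p = 0.00656). Of 6 prefoldin subunits Vbp1 was higher (0.48, edgeR adjusted p = 0.0197) and Pfdn6 lower (-0.43, edgeR adjusted p = 0.0357). Of the 15 calls, 4 held when any 1 of the 4 libraries was left out, those of Dnaja2, Hspb1, Hspb2 and Cryab, and 11 were lost in at least 1 of these fits. Cdc37 was lost without either library from 10000 cells or the experiment 1 library from 20000 cells, at log2 fold changes of -0.43 to -0.31. Clpp was lost without either library from 10000 cells, at -0.48 and -0.39. Vbp1 was lost without the experiment 2 library from 10000 cells or the experiment 1 library from 20000 cells, at 0.42 to 0.43. Pfdn6 was lost in 5 of the 11 alternative fits, among them each of the 4 with 1 library left out, at -0.49 to -0.34.

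Small heat shock proteins hold unfolded proteins without ATP, though this was not checked for each gene listed under that name here. Their list had the lowest median, -0.78 over 7 tested genes. Of these 3 were lower in experiment 2 and 0 higher. The list went both ways, with 3 positive and 4 negative values from -2.03 to 0.88, and its median is the value of Hspb1. The values that did not pass were 0.88 for Hspb8 (edgeR adjusted p = 0.151), 0.54 for Hspb11 (0.183), 0.09 for Hspb6 (0.881) and -1.71 for Cryaa (0.277), which were named after their values were seen. Hspb1 encodes Hsp27 and was at 2542 and 2333 CPM in experiment 1 and at 1510.2, 1356 and 1476 CPM in experiment 2. Hspb1 fell by 0.78 on the log2 scale (SE 0.10, edgeR adjusted p = 1.16e-05) and is named after its values were seen. Cryab, which encodes alpha-B crystallin, was at 12.6 and 11.2 CPM in experiment 1 and at 3.40, 3.16 and 2.69 CPM in experiment 2 (-2.03 ± 0.31, edgeR adjusted p = 5.85e-05). Its neighbour Hspb2 was at 13.7 and 12.7 CPM and at 3.52, 4.90 and 5.39 CPM (-1.36 ± 0.27, edgeR adjusted p = 0.00111). Hspb2 and Cryab overlap on opposite strands of chromosome 9, and since strand use is not given, reads from the shared stretch cannot be told apart. For these 3 genes the experiments did not overlap. Of the 12 fibroblast markers, Thy1 was also higher in experiment 1 (29.2 and 33.9 CPM against 6.77 to 9.78 CPM), while the sum of the other 11 overlapped between experiments and Col3a1 and Lum were at 0 counts throughout. The part of what moves with Thy1 in these differences was not tested.

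In the cytosolic Hsp70 system 1 of 21 genes was higher, the J-domain gene Dnaja2, and 1 lower, Hspa1a. Dnaja2 was at 36.3 and 41.0 CPM in experiment 1 and at 58.8, 76.9 and 73.1 CPM in experiment 2 (0.96 ± 0.15, edgeR adjusted p = 6.55e-05). Dnajb1, the J-domain partner of inducible Hsp70, had a log2 fold change of 0.44 ± 0.15 and missed the threshold (edgeR adjusted p = 0.0535). It passed in 5 of the 11 alternative fits (edgeR adjusted p of 0.0264 to 0.0495). Among the 22 tested genes of the endoplasmic reticulum list, Herpud1, which takes part in degradation of its misfolded proteins, was higher (1.07 ± 0.24, edgeR adjusted p = 0.00403). The stress transcription factor gene Ddit3 (-1.28 ± 0.29, adjusted p = 0.00469) and Creld2 (-0.62 ± 0.14, adjusted p = 0.00368) were lower. Both were lost without the experiment 2 library from 10000 cells, at -0.85 for Ddit3 and -0.44 for Creld2. Herpud1 was lost without the experiment 1 library from 10000 cells or the experiment 2 library from 20000 cells, at 0.70 to 0.98. Hsp90b1, the Hsp90 of that compartment, was at 0.06 ± 0.12 (adjusted p = 0.825).

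Of the heat shock factor genes, Hsf1 (-0.14 ± 0.13, edgeR adjusted p = 0.553) and Hsf2 (-0.13 ± 0.17, adjusted p = 0.7003) did not pass, nor did Hsf4 (1.81 ± 0.97, adjusted p = 0.247), which lies on chromosome 8 and is named after its values were seen. Hsbp1, which binds and restrains Hsf1, was higher (0.48 ± 0.12, edgeR adjusted p = 0.0105). Of 9 tested immediate early and stress genes, Ier2 was higher (0.57 ± 0.14, edgeR adjusted p = 0.00837) and Junb lower (-0.69 ± 0.17, adjusted p = 0.00609). Hsbp1 was lost without either library from 10000 cells, at 0.34 to 0.45, and Ier2 without either library from 20000 cells, at 0.38 to 0.44. Junb was lost without the experiment 2 library from 10000 cells and with all 5 libraries (edgeR adjusted p = 0.0617), at -0.57 to -0.50. Of the 5 genes that rose in the 9 lists, 4 lie on chromosome 8, namely Dnaja2, Herpud1, Hsbp1 and Ier2. On that chromosome the 409 genes averaging 10 CPM or more had a median log2 fold change of 0.46, and 91.9% of them were positive. The 9 listed genes there, Dnajb1 among them, had a median of 0.48, with 8 positive. Over the other 90 listed genes the median was -0.06, with 1 called higher and 9 lower. Chromosome 15, which holds Creld2 and Hsf1, was shifted the other way, with a median of -0.25 over 310 such genes and 21.3% positive. The medians of the other chromosomes lay between -0.10 and 0.20. None of the 10 chaperones lies on chromosome 8 or 15, and the part of either chromosome in these values was not tested.

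**Figure D4:**
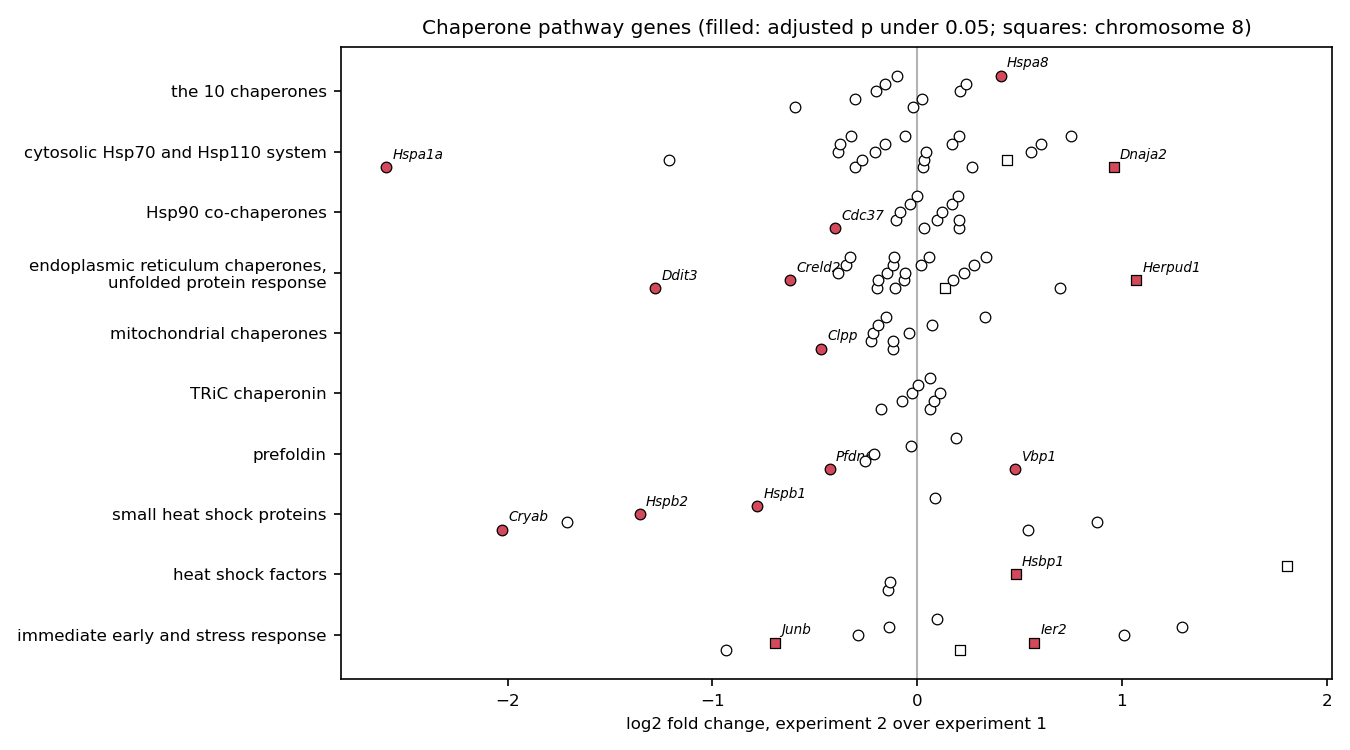
Log2 fold changes of experiment 2 over experiment 1 (horizontal axis) for the 10 chaperones and the tested genes of the 9 lists, 1 point a gene, filled where the adjusted p is under 0.05 and square where the gene lies on chromosome 8; the vertical spread within a row has no meaning. The TRiC subunits stay between -0.18 and 0.11, and Cryab, Hspb2 and Hspb1 lie at -2.03, -1.36 and -0.78.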

How the data were processed

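Gene counts for 5 mRNA libraries are whole numbers as the authors deposited them, with gene coordinates per the file headers. The genome build is mm10, and the submitters' processing notes name cutadapt, Bowtie2 2.1.0, STAR 2.5, Subread 1.5.0-p1, featureCounts, Picard, SAMtools 1.3.1, bedtools 2.24.0 and MACS2 2.1.1 without roles. How strand and multiply matching reads were handled is not given in the sources used here. For ATAC the authors deposited peak intervals, a list for each library plus a unified one, with no heights, thresholds or depth. The shortest intervals are 9 bp.

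CPM were computed from the counts. Fits used edgeR 4.0.16 (R 4.3.3, TMM, filterByExpr, glmQLFit, glmQLFTest) over the whole table on the libraries from 10000 and 20000 cells, and p-values were adjusted by Benjamini-Hochberg and read against 0.05. The steps were tested on simulated counts. Libraries were no duplicates of each other (chi-square per gene at least 10.1 in 10 pairs). The series' design text places the experiments on different days, so the experiment number pairs libraries. The differences between experiments at 10000 and 20000 cells correlated across 12523 genes with r = 0.456. RefSeq held the gene ID of 24467 of 24470 genes (GRCm38.p6), and 67% of starts were equal. Positions of elements are counted from the TSS as base 0. Alternatives were RLE factors, library size alone, DESeq2 1.42.0, other filters, blocks, all 5 libraries, each library left out, other windows, and peaks of at least 50 bp. Tables and plots were made with pandas 2.3.3, scipy 1.17.1, numpy 2.4.6 and matplotlib 3.10.9 in Python 3.11.15.

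The members and lists were chosen with earlier results of these data known. Named genes are the members, up to 2 called genes per direction and list, and Hspa1a, Hsp90b1, Hsf1, Hsf2 and Dnajb1. Hspb1, the other tested small heat shock genes and single marker genes were added after their values were seen.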

Additional observations from a re-analysis of the deposited data

Results flagged for a closer look

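For 3 of the 10 chaperones the change in log2(CPM + 1) from 10000 to 20000 cells had opposite signs in the experiments, which was not tested because there is 1 library per arm. It was -0.16 in experiment 1 and 0.42 in experiment 2 for Hspa8, -0.178 and 0.0598 for Hsp90aa1, and 0.0986 and -0.035 for Hsph1. Opposite signs were found for 48.9% of the 6485 genes averaging 10 CPM or more.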

How the results depend on the processing

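The count of genes called between experiments was 1567, and ranged from 803 to 1817 when 1 library was left out; the number of chaperones called ranged from 0 to 3 there, and was 0 with all 5 libraries. Between cell numbers 0 genes were called, against 2 with no filter on low counts, 4 with the experiment as replicate block and 3 with all 5 libraries, the slope per doubling and the replicate block. The block changed no call among the chaperones. With a pseudocount of 0.1 in place of 1, 924 genes in place of 331 differed at least 2-fold at 5000 cells, and 0 of the chaperones. Promoter peaks were found for 67 of 80 pairs of chaperone and list, and for 47 to 67 under the other windows and widths. No other scaling moved the median of all genes by over 0.1 on the log2 scale. A median of 0.12 came from leaving out the filter. The depth of the ATAC libraries limits what a missing peak shows.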
